A study of Homo sapiens with 12 samples.

Results

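ac4C peaks were examined in 9 genes of the ERBB receptor pathway: the receptor genes EGFR, ERBB2 and ERBB3, and 6 genes whose products restrain receptor signalling, ERRFI1, LRIG1, CBL, SPRY2, SPRY4 and DUSP6. They are 9 of 15845 protein-coding genes whose span and strand could be assigned. A peak was given to a gene when its midpoint lay inside the gene span on GRCh38 and its strand matched that of the gene. The cells were SW620, a human colorectal cancer line, carrying shControl (labelled WT) or shNAT10 (labelled NAT10 knockdown). NAT10 is the enzyme that writes N4-acetylcytidine, ac4C, into RNA. RNA was fragmented and precipitated with an antibody against ac4C, and peaks were listed separately for 3 control and 3 knockdown precipitates. The 6 matching input libraries were not analysed here, and the sources do not say whether the peak calling used them. A peak may therefore reflect both how much of an RNA was present and how much of it was precipitated, which cannot be told apart. The sources do not say which hairpin was used or whether the replicates were separate cultures, so p-values measure the spread between these libraries, which may be technical.

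The ERBB receptors are membrane tyrosine kinases that pair with each other when growth factors such as EGF or the neuregulins bind. ERBB2 has no known ligand of its own, and ERBB3 has little kinase activity and signals mainly as a partner of ERBB2 or EGFR. The signal runs through RAS and ERK and through PI3K and AKT, and it induces its own brakes. ERRFI1 (also called MIG6) binds the kinase domain of EGFR and ERBB2 and blocks it, LRIG1 is a membrane protein that lowers receptor levels, and CBL is the ubiquitin ligase that marks EGFR for degradation. SPRY2 and SPRY4 dampen the path to RAS, and DUSP6 is the phosphatase that removes the activating phosphates from ERK.

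The libraries held 18241, 22619 and 20063 peaks in control replicates 1 to 3, and 28752, 17877 and 19047 in knockdown replicates 1 to 3. Knockdown 1 thus had the longest list of the 6. The files give a score per peak without reads or coverage, so the depth is unknown and no counting interval can be given. Because 7.61 to 13.7% of the peaks of a library were tied at a score of exactly 3100, each score was read as a percentile within its own library, where 100 is the strongest peak. Between 99.0 and 99.2% of the peaks inside stranded genes lay on the strand of the gene. Of 8 markers of colorectal epithelium 7 had a peak, counted here on either strand. EPCAM had 1 peak in every library, KRT18 was at 0, and the summed number ran from 11 to 19 peaks per library. Of 6 markers of other cell types 2 had a peak, COL1A1 and VWF, and the sum ran from 0 to 5, with PTPRC, CD3E, COL1A2 and PECAM1 at 0 throughout. NAT10 itself had 1, 0 and 2 peaks in the control and 2, 0 and 1 in the knockdown libraries, which is no measure of its expression, so the knockdown could not be checked here.

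The sequences of 3 regions at or near gene starts are shown: ERBB2, where the presence of the peak separated the groups, LRIG1, which held the highest-ranked peak of the 9 genes, and DUSP6, whose only peak began upstream of the gene. Each run is the 250 bases before an annotated RefSeq start on GRCh38.p14, read 5′ to 3′ on the strand of the gene, with the bases covered by the peak in capitals.
ERBB2, chr17:39687844-39688093, plus strand: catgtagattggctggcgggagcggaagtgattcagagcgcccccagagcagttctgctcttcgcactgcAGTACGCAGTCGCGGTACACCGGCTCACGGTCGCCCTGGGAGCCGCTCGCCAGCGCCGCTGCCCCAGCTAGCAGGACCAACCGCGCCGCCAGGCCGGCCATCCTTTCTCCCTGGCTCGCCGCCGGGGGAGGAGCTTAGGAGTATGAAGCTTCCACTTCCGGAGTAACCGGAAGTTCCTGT
LRIG1, chr3:66500055-66500304, minus strand: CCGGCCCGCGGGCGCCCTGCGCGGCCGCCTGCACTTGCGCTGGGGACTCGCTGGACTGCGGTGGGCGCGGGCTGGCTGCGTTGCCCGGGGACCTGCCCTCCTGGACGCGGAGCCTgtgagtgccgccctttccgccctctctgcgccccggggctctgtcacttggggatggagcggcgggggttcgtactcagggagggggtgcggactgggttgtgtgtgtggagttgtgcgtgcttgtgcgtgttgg
DUSP6, chr12:89352502-89352751, minus strand: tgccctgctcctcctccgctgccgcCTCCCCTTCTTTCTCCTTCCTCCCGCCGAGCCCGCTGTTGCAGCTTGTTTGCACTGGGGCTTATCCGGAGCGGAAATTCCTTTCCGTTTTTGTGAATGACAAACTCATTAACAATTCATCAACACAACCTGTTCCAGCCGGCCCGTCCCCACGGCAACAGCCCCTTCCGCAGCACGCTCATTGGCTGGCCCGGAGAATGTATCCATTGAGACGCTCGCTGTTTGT
The ERBB2 and DUSP6 windows end with the last base before the annotated gene, and the peaks of both run on into it. The LRIG1 window lies inside the gene, before a downstream alternative start at 66500054, which the peak does not reach.

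The covered letters differed in composition. They numbered 180 in ERBB2 with 67.8% G or C, 115 in LRIG1 with 80.0%, and 225 in DUSP6 with 55.1%. The whole peaks spanned 365, 822 and 1084 bases, so only a part of each was read. In LRIG1 the peak ended at the letters gtgagt, which open the part outside it. A C followed by any 2 bases, repeated 4 times (CNNCNNCNNCNN), is a pattern known from ac4C studies. Both strands of the whole 250-base windows were searched with overlapping matches counted. It occurred 6 times on each strand of the ERBB2 window, 0 times on the gene strand and 8 times on the opposite strand of LRIG1, and 15 times on the gene strand and 1 time on the opposite strand of DUSP6. The pattern was common, with 69.7% of 35116 RefSeq windows of this length holding it on the gene strand and 86.8% on either strand. The table of starts listed 7 of the 9 genes, ERBB3 and CBL not among them.

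All 9 genes carried a peak in at least 1 library, 89 peaks in all. The control libraries held 13, 14 and 13 of them and the knockdown libraries 24, 14 and 11, a mean of 13.3 ± 0.577 (SD, n = 3) against 16.3 ± 6.81 (SD, n = 3). Knockdown 1 stood above the rest and was the only library with a peak in every one of the 9 genes, against 6, 7 and 7 genes in the controls and 7 and 7 in the other knockdown libraries. It was also the library with the longest peak list. ERBB2, ERBB3, LRIG1 and CBL had a peak in all 6 libraries, as did 4908 of the 9900 genes with any peak.

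**Figure D1:**
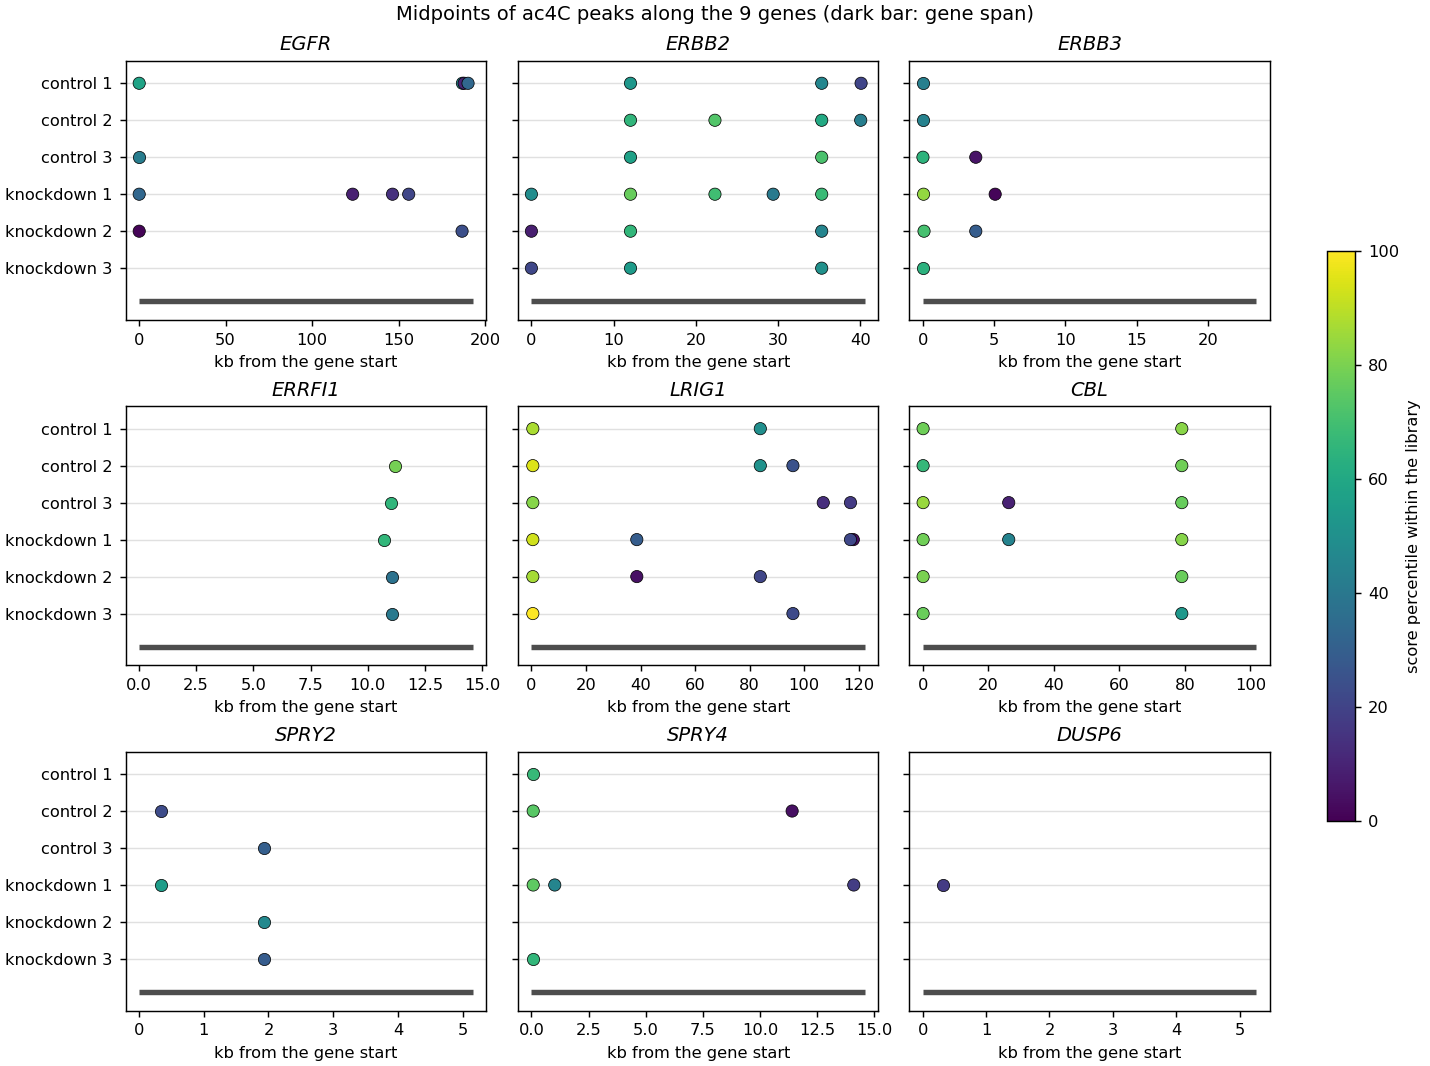
Midpoints of the 89 peaks along each gene, in kb from the gene start, with 1 line per library and colour for the score percentile within the library (0 to 100). The same positions recur between libraries at the starts of ERBB3, LRIG1 and CBL, while the ERBB2 start was occupied in the 3 knockdown libraries alone.

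Among the receptors, ERBB2 (chr17:39688094-39728658, plus strand) had the most peaks, 3, 4 and 2 in the control and 5, 3 and 3 in the knockdown libraries. The groups overlapped, with means of 3 ± 1 and 3.67 ± 1.15 (SD, n = 3 each), and an exact two-sided permutation test over the libraries gave p = 0.7. EGFR (chr7:55019017-55211628, plus strand) had 4, 0 and 1 peaks in the control and 4, 2 and 0 in the knockdown libraries, so each group held 1 library without any. ERBB3 (chr12:56080108-56103505, plus strand) had 1, 1 and 2 against 2, 2 and 1.

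Among the inhibitors, LRIG1 (chr3:66378797-66501121, minus strand) had 2, 3 and 3 peaks in the control and 4, 3 and 2 in the knockdown libraries. CBL (chr11:119206339-119308149, plus strand) had 2, 2 and 3 against 3, 2 and 2, equal means of 2.33. ERRFI1 (chr1:8011727-8026309, minus strand) had 0, 1 and 1 against 1, 1 and 1. The gene lacked a peak in control 1 alone. SPRY2 (chr13:80335976-80341126, minus strand) gave the identical series of 0, 1 and 1 against 1, 1 and 1. SPRY4 (chr5:142310430-142325021, minus strand) had 1, 2 and 0 against 3, 0 and 1. DUSP6 (chr12:89347235-89352501, minus strand) had its single peak in knockdown 1.

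For these 9 genes the two-sided exact p of the peak number was 0.7 in ERBB2 and 1 in the other 8, and with 3 libraries a group it cannot go below 0.1. After Benjamini-Hochberg adjustment over 9900 genes every p was 1. The groups did not separate in any of the 9 genes, neither upward nor downward, while 1.58% of 9900 genes had a higher number in every knockdown than in every control library and 0.697% a lower one. Likewise 0 of 9 genes had a peak in all libraries of 1 group and none of the other. Over all genes 0.394% had one in the knockdown group alone and 0.374% in the control group alone.

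**Figure D2:**
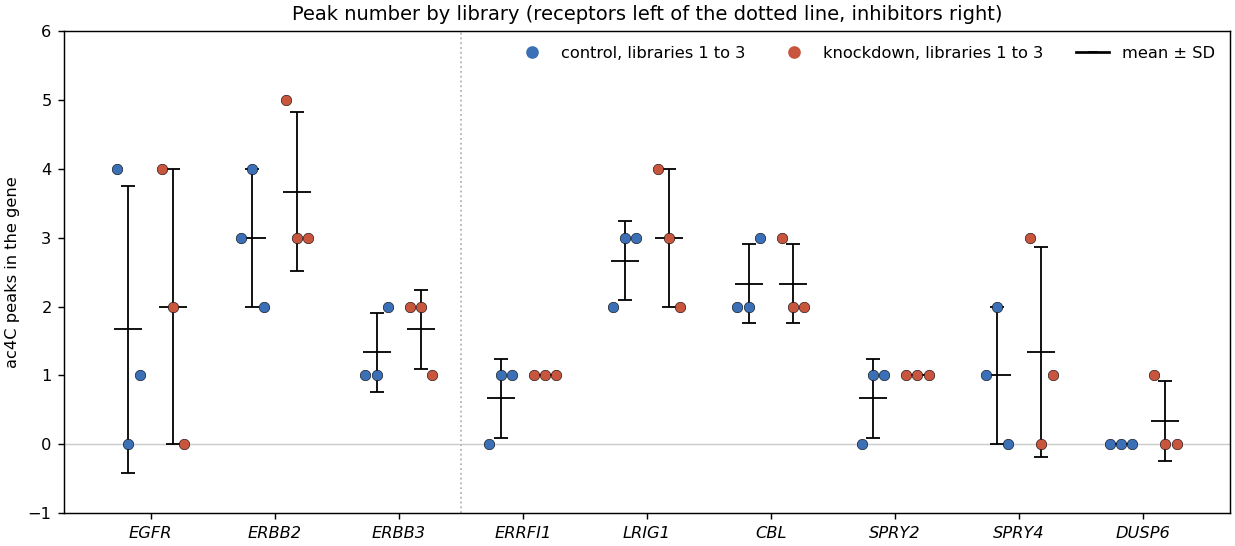
Number of ac4C peaks per gene (y axis) in each control (blue) and knockdown (red) library, with the mean and SD of 3 libraries per group. The groups overlap in each of the 9 genes, and the highest points of ERBB2, LRIG1 and SPRY4 belong to knockdown 1.

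Peaks of different libraries that overlapped by at least 1 base on the same strand were merged into regions, which gave 35 regions in the 9 genes and 41755 in all. Of the 35, 6 were found in all 6 libraries (17.1%, against 22.0% of all regions) and 14 in a single library (40%, against 38.7%). Knockdown 1 was that single library in 10 of the 14, and in 7156 of the 16141 single-library regions overall. Where a region was seen in more than 1 library, its edges were often the same to the base. This held for 15 of 21 regions (71.4%) in the 9 genes and for 60.6% of all such regions.

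A single region separated the groups, and it lay at the start of ERBB2. The peak ran from 180 bases before to 184 bases after the annotated gene start (chr17:39687914-39688278, 365 bases) with the same edges in every library that had it. It was listed in knockdown replicates 1, 2 and 3 at the 48.8, 8.21 and 21.2 percentile and in none of the 3 control libraries. Presence in all knockdown and no control libraries was seen for 342 of 41755 regions (0.819%), and the opposite pattern for 0.34% of all regions and 0 of these 35. All 3 peaks ranked below the middle of their library, so none remained when the lists were cut to their upper 50% by score. The region was still found in the knockdown libraries alone when each library was shortened to its 17877 highest-scored peaks. That says little, since shortening adds no peak to the controls and leaves knockdown 2, the shortest list, uncut.

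The first 144 bases of the region also lie within PGAP3, a gene on the opposite strand whose product remodels lipid anchors of proteins. The peak was called on the strand of ERBB2. No library had a peak on the other strand across any of the 35 regions. Elsewhere in its span PGAP3 had 1, 3 and 2 peaks of its own strand in the control and 1, 0 and 1 in the knockdown libraries. The midpoint of the ERBB2 peak falls only 2 bases inside the gene, so the peak counts as an ERBB2 peak by a narrow margin under the midpoint rule.

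**Figure D3:**
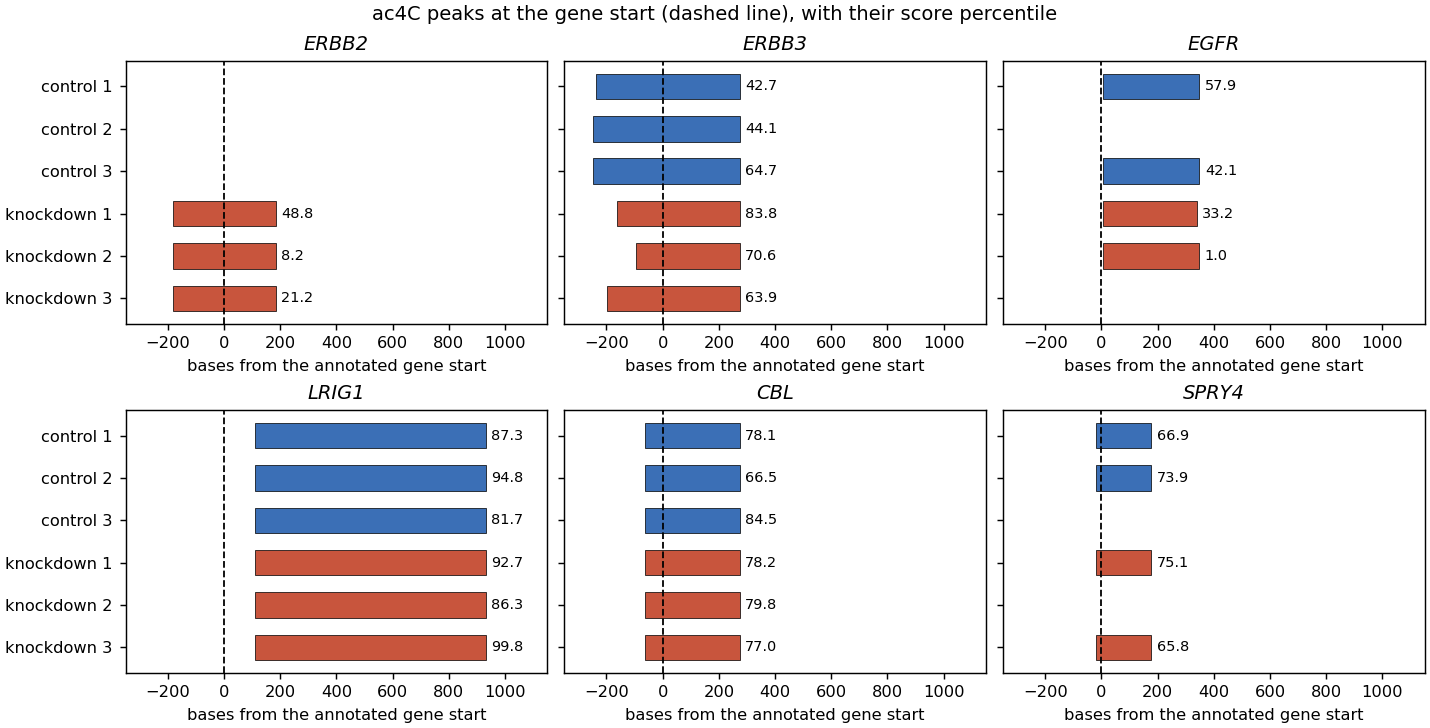
Extent of the peaks at the start of 6 genes in bases from the annotated gene start (dashed line), 1 bar per library with control in blue and knockdown in red, and the score percentile printed beside each bar. ERBB2 has bars in the knockdown libraries alone, and the left edge of the ERBB3 bars lies nearer to the start in all 3 knockdown libraries than in any control library.

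The start of ERBB3 was listed in all 6 libraries with an extent that varied. Its peak was 511, 522 and 522 bases wide in the control and 437, 370 and 474 bases in the knockdown libraries, so every knockdown library was narrower than every control library. All 6 peaks ended at 274 bases after the gene start. They began 236, 247 and 247 bases before it in the controls and 162, 95 and 199 bases before it in the knockdown libraries. Mean widths were 518 ± 6.35 and 427 ± 52.7 bases (SD, n = 3 each), a log2 difference of -0.29 (SE 0.0988). The exact permutation test gave its smallest possible two-sided p of 0.1. With limma over the 2861 shared regions of varying width, the unadjusted p was 0.0351 and the adjusted p 0.826, so the difference did not pass. Such a separation toward narrower peaks was found in 1.89% of those regions, and 0.035% (1 region, not in these genes) passed at an adjusted p of 0.05.

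The same ERBB3 peak ranked at the 42.7, 44.1 and 64.7 percentile in the control and the 83.8, 70.6 and 63.9 percentile in the knockdown libraries. The groups overlapped, with control 3 slightly above knockdown 3. Mean percentiles were 50.5 ± 12.3 and 72.8 ± 10.1 (SD, n = 3 each). On normal scores of the ranks, limma gave a difference of 0.61 (SE 0.247, unadjusted p = 0.044, adjusted p = 0.763), and the exact permutation p was 0.2. Inside ERBB3 there was a weak peak 3643 bases from the start in control 3 (5.09 percentile) and knockdown 2 (29.3), and another 4887 bases from the start in knockdown 1 (1.25).

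LRIG1 and CBL had start peaks with the same edges in all 6 libraries. The LRIG1 start peak (822 bases, chr3:66500190-66501011) ranked at 87.3, 94.8 and 81.7 in the control and 92.7, 86.3 and 99.8 in the knockdown libraries. The value in knockdown 3 was the highest of any peak in the 9 genes, and 2 of the 6 peaks carried the tied score of 3100. The groups overlapped (difference of normal scores 0.57, SE 0.463, limma adjusted p = 0.779). The CBL start peak (337 bases, from 63 bases before to 273 after the gene start) ranked at 78.1, 66.5 and 84.5 against 78.2, 79.8 and 77.0, also with overlap (0.05, SE 0.196, limma adjusted p = 0.949).

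The other 3 shared regions lay inside ERBB2 and CBL. In ERBB2 a 336-base peak starting 11882 bases into the gene ranked at 53.0, 65.5 and 57.3 in the control and 76.8, 66.0 and 54.6 in the knockdown libraries. A 139-base peak starting 35225 bases into the gene ranked at 45.7, 60.5 and 71.5 against 67.8, 45.5 and 50.1. In CBL a 378-base peak starting 78850 bases into the gene ranked at 82.3, 78.4 and 76.7 against 81.6, 77.2 and 53.4, where knockdown 3 was the low one. The groups overlapped in all 3, with limma adjusted p of 0.779, 0.870 and 0.779.

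Ranks of the 6 shared regions overlapped between groups in every case. Over all 9195 shared regions, 6.98% ranked higher in every knockdown than in every control library and 4.05% ranked lower. limma called 0% of the 9195 at an adjusted p of 0.05, with 588 at an unadjusted p under 0.05, and with the log2 score in place of the rank it called 1 region outside these genes. The median difference of the 6 regions was 0.12 on the normal score scale, or 3.48 percentile points, beside 0.03 and 0.704 over all shared regions.

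**Figure D4:**
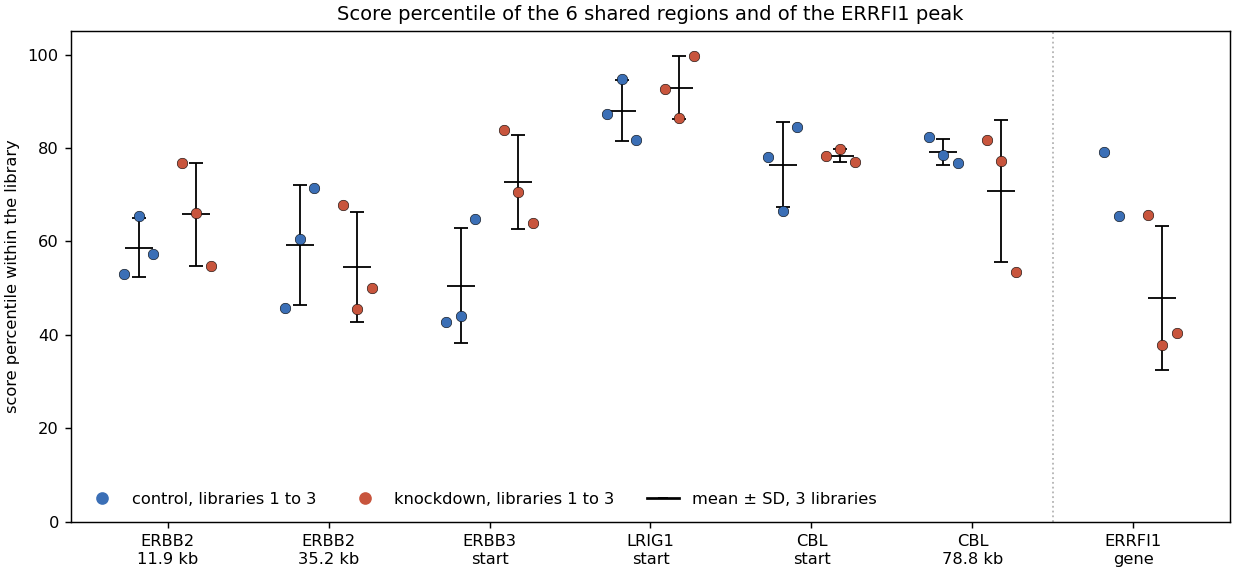
Score percentile within the library (y axis) of the 6 regions found in every library and of the ERRFI1 peak (right of the dotted line), with control in blue, knockdown in red and the mean and SD where all 3 libraries of a group had a peak. The groups overlap in each shared region. For ERRFI1 control 2 and control 3 lie above knockdown 2 and knockdown 3. Knockdown 1, whose peak lay beside the region of the others without overlapping it, is close to control 3.

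ERRFI1 is the inhibitor on which the study centred. Its peaks lay between 10617 and 11453 bases from the gene start, with midpoints at 73.5 to 76.7% of the gene length, and it was the only 1 of the 9 genes without a peak near the start. A region of 529 bases (chr1:8014856-8015384) held a peak at the 79.2 percentile in control 2, 65.4 in control 3, 37.8 in knockdown 2 and 40.3 in knockdown 3. The widths were 529 and 227 bases in those controls and 286 and 276 bases in those knockdown libraries, with 1 common edge 10925 bases from the start. Knockdown 1 had no peak there but a separate one of 198 bases (chr1:8015495-8015692) at the 65.7 percentile, and control 1 had none in the gene. The interval that the paper prints for ERRFI1 ac4C peaks matches this knockdown 1 peak to within 1 base. No other library listed a peak in that interval. The knockdown 1 peak ranked just above the one of control 3. Within the common region the 2 knockdown values were the lower ones, but no share of all regions with this order is given here. Since the region was missing from 1 library of each group, it entered no test, and the presence of an ERRFI1 peak did not separate the groups.

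Of 3492 genes with at most 1 peak in every library, the 3 whose percentiles were nearest to those of ERRFI1 over the 6 libraries were ZNF32, RTN3 and DENR. The Euclidean distances were 25.9, 27.2 and 29.4 percentile points, with an absent peak set to 0. ZNF32 shared the missing peak in control 1 and ranked at 73.7 and 41.2 in control 2 and 3 and at 69.1, 41.8 and 35.0 in knockdown 1 to 3. The absence in control 1 with a peak in the other 5 libraries was found in 60 of the candidates.

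EGFR had 11 peaks in all, 4 at its start, 4 near its end and 3 between. A 345-base peak began 4 bases after the annotated start and ranked at 57.9 in control 1, 42.1 in control 3, 33.2 in knockdown 1 (336 bases) and 1.00 in knockdown 2. The 2 knockdown values were below the 2 control values, but no share of all regions with this order is given here. Control 2 and knockdown 3 lacked the peak, so it was not tested. In the last part of the gene control 1 had 3 peaks (46.7, 9.39 and 33.3 percentile) and knockdown 2 had 1 (23.9), all at least 186239 bases from the start. The remaining 3 EGFR peaks were seen in knockdown 1 alone, 52 to 85 bases wide and at the 8.79 to 21.0 percentile.

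The other ERBB2 regions were found in fewer libraries. A 142-base peak starting 22246 bases into the gene ranked at 72.9 in control 2 and 69.3 in knockdown 1. A 338-base peak 29226 bases into it was listed in knockdown 1 at 40.7. The region at the end of the gene (974 bases, chr17:39727689-39728662) was seen in control 1 and control 2, at 20.3 and 42.6, and in no knockdown library. It overlaps MIEN1, a gene on the opposite strand, by 153 bases.

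Among the remaining LRIG1 peaks the most frequent was one of 138 bases at 83855 bases from the start, at 49.4 and 51.1 in control 1 and 2 and 20.7 in knockdown 2. The other LRIG1 regions appeared in 1 or 2 libraries each, at the 3.26 to 29.1 percentile. CBL had 1 further region, at 26109 bases from the start, in control 3 (9.22) and knockdown 1 (44.7).

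The Sprouty genes gave few peaks. SPRY4 had a 197-base peak beginning 19 bases before the gene start, at 66.9 and 73.9 in control 1 and 2 and at 75.1 and 65.8 in knockdown 1 and 3, so 1 library of each group lacked it and the values overlapped. Its other 3 regions were found in 1 library each, 1 in control 2 and 2 in knockdown 1. SPRY2 had 2 regions and no library held both. The one of 927 bases (chr13:80338733-80339659), whose 5′ edge is also an annotated RefSeq start, ranked at 30.0 in control 3, 47.0 in knockdown 2 and 28.8 in knockdown 3. The one of 330 bases, 175 bases from the gene start, ranked at 23.0 in control 2 and 55.1 in knockdown 1. The DUSP6 peak of knockdown 1 (1084 bases, from 225 bases before to 858 after the gene start) ranked at 17.6 and also lies within the readthrough gene POC1B-DUSP6.

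Peaks near the annotated start, with any base within 500 bases of it, were found in at least 1 library for 8 of the 9 genes, all but ERRFI1. Of 9900 genes with a peak 55.8% had one there. ERBB3, LRIG1 and CBL had it in all 6 libraries, as did 24.2% of genes. The counts of 8 and 3 were the same for windows of 250 bases (50.6% and 21.8% of genes) and 1000 bases (60.6% and 26.8%).

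Beyond the 9 genes, a list of 54 genes of the same pathway was examined, of which 46 had a known strand and 37 had a peak, 21 of them in all 6 libraries. A single gene was higher in every knockdown than in every control library and 0 were lower, beside 1.58% and 0.697% of all genes. That gene was RHBDF1, an inactive rhomboid protein that helps the sheddase ADAM17 mature. It had no peak in the control libraries and 2, 1 and 2 in the knockdown libraries, at the 7.51 to 41.0 percentile. A peak (chr16:72513-72631, minus strand) was common to the 3 knockdown libraries. Its exact permutation p was 0.1 and its adjusted p over all genes was 1.

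The receptor ERBB4 had no peak in any library. Of 10 ligand genes 6 had one, and 4 had one in all 6 libraries, namely TGFA, AREG, EREG and HBEGF, which are ligands of EGFR. HBEGF had exactly 1 peak in each library, and AREG had 2, 1 and 2 in the control and 2, 2 and 2 in the knockdown libraries. All 8 usable genes of the adaptors and RAS activators had a peak, with GRB2, the adaptor that links receptors to SOS, at 2, 2 and 3 against 2, 3 and 2. FRS3, a docking protein of growth factor receptors, had 1, 2 and 2 against 2, 4 and 4, with overlap between the groups (exact permutation p = 0.3). Of 11 other feedback inhibitors 9 had a peak, and of 12 genes of receptor degradation and trafficking 11 had one. Among the latter SH3KBP1, the CBL-binding adaptor also known as CIN85, had the most peaks, 10, 13 and 11 against 14, 12 and 15, with overlap between the groups through control 2 and knockdown 2.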

How the data were processed

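acRIP-seq, ac4C antibody precipitation with sequencing, had been run on SW620 cells with shControl or shNAT10. The deposited files are 1 peak list per precipitate, 6 in all, with chromosome, start, end, strand and a score. The score was set by the authors' peak calling and its definition, the aligner and the use of the inputs are not given in the sources used here; peak names carry the prefix MACS. The build is GRCh38 per the labels. Columns other than position, strand and score were not used.

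Gene spans came from the RefSeq table of GRCh38.p14. Strands came from the matching table of gene starts (15843 of 20056 protein-coding genes), and those of ERBB3 and CBL were set by hand (all their peaks are on that strand). Positions are 1-based. No exon annotation was used. Percentiles are midranks within a library. Numbers of peaks were compared by an exact two-sided permutation test over the 20 splits of 6 libraries with Benjamini-Hochberg adjustment over 9900 genes. Presence was not tested, only called when all libraries of 1 group and none of the other had a peak. Normal scores of the ranks and log2 widths of shared regions were tested with limma 3.58.1 in R 4.3.3, adjusted over all of them at 0.05. Python 3.11.15 and scipy 1.17.1 did the rest. Region merging, the call of regions found in 1 group alone and limma on ranks were tested on simulated data. Gene assignment, the permutation test and the width fit were not.

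The members and lists were chosen with earlier results of these data known. The genes named are the 9 members, pathway genes whose groups did not overlap (up to 10), the 3 genes nearest to ERRFI1, and a few pathway and marker genes chosen after their values were seen. Alternatives were shorter lists, other rules of assignment, a block for replicate number, other scales and leaving out each library.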

Additional observations from a re-analysis of the deposited data

How the results depend on the processing

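The number of member genes whose peak number or presence separated the groups, and of member regions called by limma for rank or width, was 0 under each alternative tried, including peaks on either strand, any overlap with the gene, and each library left out. The deviations of same-numbered libraries were close to uncorrelated (-0.0129, -0.0488 and 0.0499). Whether libraries of the same number were prepared together is not stated. With the replicate block limma called 0 member regions for rank and 0 for width. For peak numbers, the 3 same-numbered differences shared a sign in 0 member genes, and the smallest p of that blocked test is 0.25, so it could call none. Presence was not tested, with or without the block. In limma the block raised the unadjusted p of the ERBB3 width from 0.0351 to 0.0618 and that of its rank from 0.044 to 0.0837. Regions found in all libraries of 1 group and none of the other numbered 1, the ERBB2 start, and 0 with the upper 50% of each list by score. With 1 library left out the number ran from 1 to 2, adding the end of ERBB2 (controls) without control 3 and the 72-base LRIG1 region 38612 bases from the start (knockdown) without knockdown 3. The ERBB2 start was among them each time. That was fixed in advance, since a peak in all knockdown and no control libraries still qualifies when 1 is dropped. The share of all regions so called with 1 library left out is not given here.

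Pathway genes with separated groups numbered 1, 3 with all lists shortened to 17877 peaks (RHBDF1, and CBLB and STAM lower), and 0 with the upper 50% of each list by score. With 1 library left out the number ran from 2 to 5, the most without knockdown 1 (RHBDF1 and FRS3 higher, SHC1, CBLB and RHBDF2 lower). Leaving out a library can add such genes but cannot remove any, so RHBDF1 was bound to be in each of those sets. No share over all genes is given here for these settings or for the shortened lists, so the counts have no background beside them. The median rank difference of the shared member regions ran from 0.05 to 0.18 with 1 library left out and was 0.28 over the 4 regions left among the upper 50% of each list by score. The ERBB3 rank difference ran from 0.43 to 0.79 and its log2 width difference from -0.37 to -0.19 with 1 library left out, with adjusted p of 0.435 to 0.886 and 0.753 to 0.901. The small differences in peak number of several genes, 0.333 in EGFR, ERRFI1, LRIG1 and SPRY4, turned sign. EGFR was at -1 with all lists shortened to 17877 peaks, at -0.333 with the upper 50% of each list by score, and ran from -0.667 (without knockdown 1) to 1.5 (without control 1) with 1 library left out. ERRFI1 was at -0.333 with the upper 50%. LRIG1 was at -0.667 with 17877 peaks, -0.333 with the upper 50% and -0.167 without knockdown 1. SPRY4 was at -0.5 without knockdown 1 and -0.167 without control 3. The lists hold called peaks alone, so a signal just under the calling limit cannot be told from none.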
